A study of Mus musculus with 6 samples.

Results

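Monocyte-derived macrophages are the macrophages that blood monocytes give rise to after they enter a tissue, and this account describes 10 transcripts used to mark them in livers of mice on a high-fat diet. The 10 genes were taken by name from the count table, which holds 54532 genes, and all 10 were found in it, once each. They are the chemokine receptors Ccr2 and Cx3cr1, the integrin subunit Itgam, the lipopolysaccharide co-receptor Cd14, the antibody receptors Fcgr1 and Fcgr3 with their shared signalling chain Fcer1g, the lysozyme gene Lyz2, the membrane protein gene Ms4a7 and the cytoskeletal gene Aif1. Bulk RNA sequencing of liver gave 6 libraries from male mice, 3 labelled wild-type littermates (WT, replicates 1 to 3) and 3 labelled Trem2-deficient (KO, replicates 4 to 6). Both groups were put on the high-fat diet at 8 weeks of age and kept on it for 8 weeks, so neither group is a lean control. The comparison asks how these transcripts differ where Trem2, a macrophage receptor that binds lipids, is absent. The labels name no strain and do not describe the Trem2 allele, and nothing in them states that the libraries come from separate mice, so p-values measure the spread between these libraries.

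In the liver, resident macrophages (Kupffer cells) line the sinusoids and keep their own numbers. Monocytes leave the marrow through Ccr2, which answers the chemokine Ccl2, and patrol vessels through Cx3cr1, which binds Cx3cl1. In fatty liver disease monocytes enter the tissue and become macrophages, some of which take on a lipid-handling state that carries Trem2. Fcgr1, Fcgr3, Fcer1g, Aif1, Cd14 and Lyz2 are shared by many macrophages, Kupffer cells included, and hepatocytes and endothelial cells can also express Cd14. Bulk values of these genes therefore do not belong to 1 cell type, and a lower number of cells cannot be told apart from less RNA per cell.

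Levels are given as CPM, the usual depth-scaled counts, after TMM scaling that sets the libraries to a common size. A log2 change sets the KO-labelled libraries over the WT-labelled ones and is given with its standard error (SE), and adjusted p is the Benjamini-Hochberg value of edgeR's quasi-likelihood test over the 13693 genes that passed the low-count filter. All 10 markers passed that filter. The libraries held between 11591021 and 20399361 counts, and the 10 markers together took between 474 and 1454 counts of a library. Mitochondrially encoded genes took 8.16% to 12.7% of the counts in WT-labelled libraries and 28%, 9.08% and 19.8% in KO replicates 4, 5 and 6. Trem2 itself had 7, 26 and 26 counts in the WT-labelled and 9, 6 and 5 counts in the KO-labelled libraries. WT replicate 1 thus lay within the KO range, so Trem2 did not separate the labels and every direction is between libraries as labelled.

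All 10 markers had a fitted level above WT in KO-labelled livers, and none passed the adjusted threshold of 0.05. Across all tested genes 0.0146% passed it and 49.1% were fitted higher. The median log2 change of the 10 was 0.75, against −0.01 over all tested genes. For 5 of them, Fcgr1, Fcgr3, Fcer1g, Aif1 and Cx3cr1, every KO-labelled library lay above every WT-labelled one, which was so for 8.12% of tested genes. The same 5 had an unadjusted edgeR p below 0.05, as did 5.37% of tested genes in that direction. No marker had all KO-labelled libraries below the WT-labelled ones (5.73% of tested genes) or an unadjusted p below 0.05 as lower (3.21%). The other 5, Ccr2, Itgam, Lyz2, Cd14 and Ms4a7, had overlapping groups. With the log2 mitochondrial share in the edgeR model, Fcgr3 alone of the 5 separated markers kept an unadjusted p below 0.05 (0.034). In that model p was 0.090 for Fcgr1, 0.117 for Aif1, 0.187 for Fcer1g and 0.222 for Cx3cr1. For Lyz2, of the overlapping markers, it was 0.0033. The part of that share in these differences was not tested. Since many of these genes are expressed by the same cells, the 10 are not independent of one another. The lowest adjusted p of the 10 was 0.414, for Fcgr3.

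**Figure D1:**
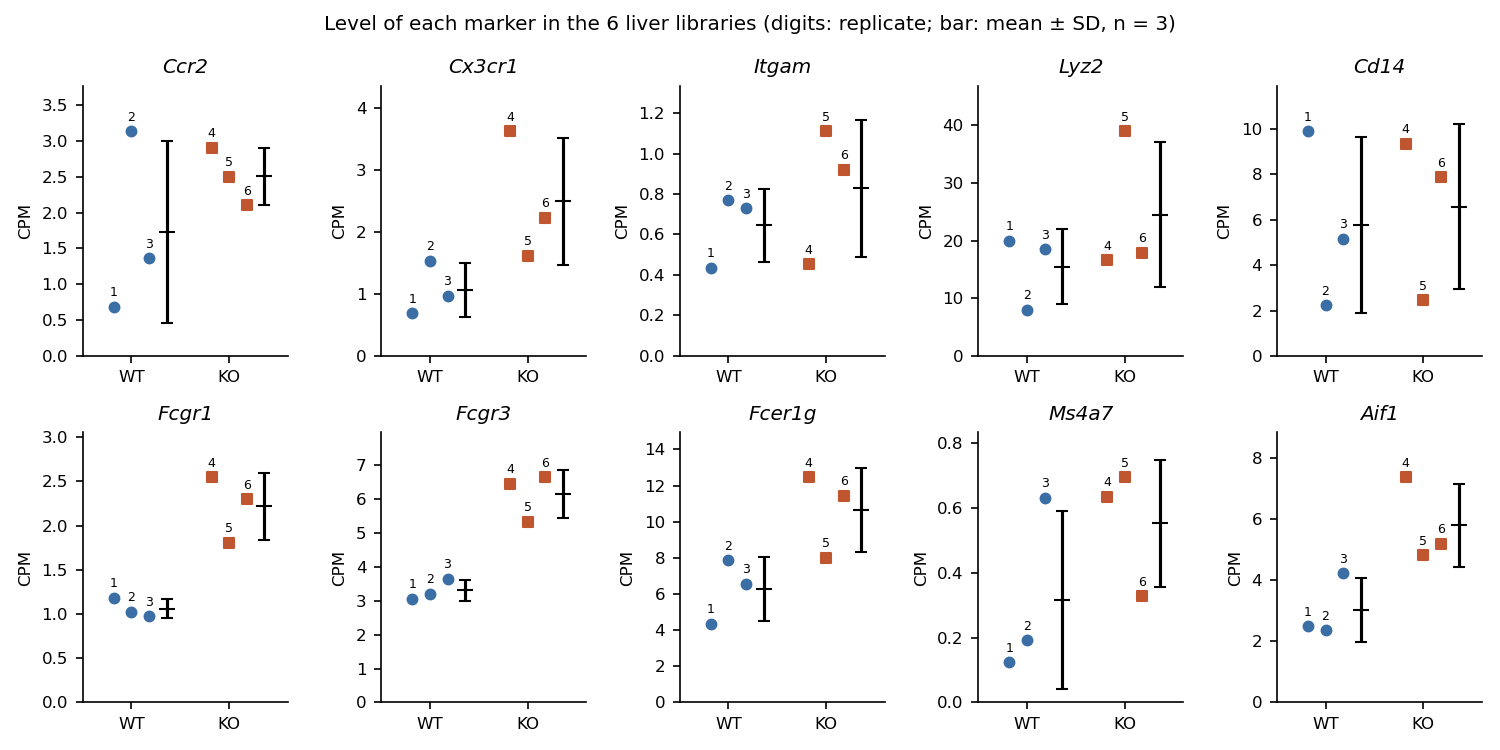
Level of each of the 10 markers in CPM (vertical axes, each starting at 0) in the WT-labelled (circles) and KO-labelled (squares) libraries, with the replicate number at each point and bars for mean ± SD (n = 3). The groups are apart for Cx3cr1, Fcgr1, Fcgr3, Fcer1g and Aif1 and overlap for the other 5.

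The receptors for antibody, Fcgr1 and Fcgr3, and their signalling chain Fcer1g lay 1.70-fold to 2.09-fold higher in KO-labelled livers by their mean CPM, without passing the adjusted threshold. Fcgr1 encodes the high-affinity receptor for IgG and Fcgr3 a low-affinity one; neither reaches the surface or signals well without the chain that Fcer1g encodes, which also serves the IgE receptor of mast cells. Fcgr3 (ENSMUSG00000059498, mm10 chromosome 1, 171051174 to 171064935) stood at 3.05, 3.20 and 3.65 CPM in WT replicates 1, 2 and 3. It stood at 6.45, 5.33 and 6.63 CPM in KO replicates 4, 5 and 6. The groups did not overlap, and the gap between them was wider than the range within either group. The means were 3.30 ± 0.309 and 6.14 ± 0.707 CPM (SD, n = 3 each), a 1.86-fold difference (log2 change 0.89, SE 0.26, adjusted p = 0.414 by edgeR).

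Fcgr1 (ENSMUSG00000015947, chromosome 3, 96282909 to 96293969) showed the same arrangement at a lower level. It had 1.18, 1.02 and 0.973 CPM in WT replicates 1 to 3 and 2.54, 1.81 and 2.30 CPM in KO replicates 4 to 6. Each KO-labelled value exceeded the highest WT-labelled one. The means were 1.06 ± 0.110 and 2.22 ± 0.375 CPM (SD, n = 3 each; log2 change 1.05, SE 0.37, adjusted p = 0.513 by edgeR). These values rest on 16 to 20 counts per library in the WT-labelled group and 28 to 39 in the KO-labelled group.

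Fcer1g (ENSMUSG00000058715, chromosome 1, 171229572 to 171234365), which lies 164.6 kb from Fcgr3, had 4.36, 7.88 and 6.57 CPM in WT replicates 1 to 3. It had 12.4, 8.01 and 11.4 CPM in KO replicates 4 to 6. The groups were separated only by the small step from 7.88 in WT replicate 2 to 8.01 in KO replicate 5, and they overlapped under each of the 5 other scalings tried and without WT replicate 3. Its log2 change was 0.76 (SE 0.30, edgeR adjusted p = 0.542). KO replicates 4 and 6, the highest for Fcer1g, are also those with the highest mitochondrial share; with the log2 mitochondrial share in the model the log2 change was 0.38 for Fcer1g, 0.75 for Fcgr3 and 0.87 for Fcgr1. The part of that share in the difference was not tested. Without WT replicate 1 and KO replicate 4 the log2 change of Fcer1g was 0.43.

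Set against their chain, both receptors overlapped between the groups. The CPM ratio of Fcgr3 to Fcer1g was 0.554 ± 0.147 in WT-labelled and 0.588 ± 0.0735 in KO-labelled libraries (SD, n = 3 each), and that of Fcgr1 to Fcer1g 0.183 ± 0.0769 and 0.210 ± 0.0132. Fcgr4, an activating IgG receptor that also needs this chain, stood at 1.73 ± 0.323 and 3.43 ± 0.777 CPM (log2 change 0.98, SE 0.35, adjusted p = 0.519 by edgeR). The inhibitory receptor Fcgr2b, which sinusoidal endothelium expresses in abundance, stood at 29.2 ± 3.03 and 39.5 ± 8.41 CPM with overlapping groups (log2 change 0.44, SE 0.22, adjusted p = 0.627 by edgeR). Of the 50-base words in Fcgr3 transcripts, 9.58% also occur in Fcgr2b transcripts, so some of its reads can be exchanged with that more abundant gene. No such word was shared by Fcgr1 or Fcer1g with another gene.

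Promoter sequence was read for these genes because the values of several lay higher together. Myeloid promoters are known for sites of the ETS factor PU.1, encoded by Spi1, and of C/EBP factors. RefSeq windows (GRCm38.p6, 250 bases before to 50 after the start site) were found for 9 of the 10 markers. The PU.1-type word GAGGAAGT, sought on both strands, was in 0 of the 9 and in 3.69% of all genes with a window. The C/EBP-type word TTGCNNAA was in 1 of the 9, Fcgr3, and in 12.2% of all genes. The shorter ETS word AGGAAG, which the first word contains and which was added after that search, was in 5 of the 9, Fcer1g, Fcgr1, Fcgr3, Itgam and Lyz2, and in 38.4% of all genes. A match is a description of the letters only. For these 5, up to 100 bases before the RefSeq start site are shown 5′ to 3′, without bases of annotated exons, with matches to AGGAAG or TTGCNNAA on either strand in capitals.
Fcgr3 (chr1:171059404-171059503, minus strand): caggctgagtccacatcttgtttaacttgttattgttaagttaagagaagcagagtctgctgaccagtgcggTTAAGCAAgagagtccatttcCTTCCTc
Fcgr1 (chr3:96293970-96294069, minus strand): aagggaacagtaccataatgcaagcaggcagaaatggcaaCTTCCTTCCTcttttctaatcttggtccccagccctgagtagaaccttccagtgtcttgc
Fcer1g (chr1:171234366-171234449, minus strand): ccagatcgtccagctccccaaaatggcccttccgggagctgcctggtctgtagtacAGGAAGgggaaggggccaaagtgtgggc
Itgam (chr7:128062540-128062639, plus strand): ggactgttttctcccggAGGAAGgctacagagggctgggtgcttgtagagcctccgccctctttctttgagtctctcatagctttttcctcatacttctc
Lyz2 (chr10:117282322-117282372, minus strand): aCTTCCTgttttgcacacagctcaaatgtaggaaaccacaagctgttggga
The 2 matches of Fcgr1 overlap, giving the longest run in capitals, and Fcgr3 holds 1 match of each word. Further matches of Lyz2, Fcer1g and Itgam to AGGAAG lie outside the bases shown. Spi1 averaged 4.19 ± 0.656 CPM in livers labelled WT and 6.57 ± 1.09 CPM in those labelled KO (SD, n = 3 each), without overlap of the groups (log2 change 0.64, SE 0.27, adjusted p = 0.571 by edgeR). Cebpa and Cebpb, which hepatocytes express strongly, had log2 changes of −0.34 (SE 0.24) and −0.01 (SE 0.26).

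Aif1 encodes a calcium-binding protein of the macrophage cytoskeleton, also called IBA1 and widely used to stain macrophages. The gene (ENSMUSG00000024397, chromosome 17, 35170991 to 35176068) had 2.49, 2.37 and 4.23 CPM in WT replicates 1 to 3 and 7.36, 4.82 and 5.19 CPM in KO replicates 4 to 6. WT replicate 3 came close to the lowest KO-labelled value without reaching it. The means were 3.03 ± 1.04 and 5.79 ± 1.37 CPM (SD, n = 3 each; log2 change 0.92, SE 0.35, adjusted p = 0.529 by edgeR). Its log2 change was 0.69 with the mitochondrial share in the model and 0.59 without WT replicate 1 and KO replicate 4. Aif1 lies on the same chromosome as Trem2, 13.2 Mb away, and whether sequence around the targeted allele differs between the groups was not tested.

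The chemokine receptors differed from each other in how the libraries lined up. Cx3cr1 (ENSMUSG00000052336, chromosome 9, 119901616 to 120069879), the fractalkine receptor, had 0.686, 1.54 and 0.973 CPM in WT replicates 1 to 3 and 3.63, 1.62 and 2.23 CPM in KO replicates 4 to 6. The groups did not overlap, but WT replicate 2 and KO replicate 5 were nearly level, at 24 and 35 counts. Its log2 change was 1.21 (SE 0.49, edgeR adjusted p = 0.546), the highest of the 10. It was 0.60 with the mitochondrial share in the model, and 0.62 with WT replicate 1 and KO replicate 4 both left out. The annotated span of Cx3cr1 covers other genes, but of its exon bases only 1.73% are shared, with the opposite-strand gene Gm33858.

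Ccr2 (ENSMUSG00000049103, chromosome 9, 124101950 to 124113557), the receptor that brings monocytes out of the marrow, lies 4.03 Mb from Cx3cr1. It had 0.686, 3.14 and 1.36 CPM in WT replicates 1 to 3 and 2.91, 2.50 and 2.10 CPM in KO replicates 4 to 6. The WT-labelled group held both the lowest and the highest value of the 6, and the KO-labelled group lay between them. The means were 1.73 ± 1.27 and 2.50 ± 0.403 CPM (SD, n = 3 each; log2 change 0.53, SE 0.55, adjusted p = 0.752 by edgeR). The result turned on single WT-labelled libraries, with a log2 change of 0.16 without WT replicate 1, 1.26 without WT replicate 2 and 0.05 without WT replicate 1 and KO replicate 4. The CPM ratio of Ccr2 to Cx3cr1 was 1.00, 2.04 and 1.40 in the WT-labelled and 0.800, 1.54 and 0.941 in the KO-labelled libraries, with overlap.

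The ligands of these receptors were scarce. Ccl2, the chief monocyte attractant, had 5, 3 and 11 counts in the WT-labelled and 9, 29 and 20 counts in the KO-labelled libraries, or 0.346 ± 0.174 and 1.16 ± 0.295 CPM (SD, n = 3 each). Its CPM groups did not overlap (log2 change 1.71, SE 0.54, adjusted p = 0.445 by edgeR). Cx3cl1 stood at 0.781 ± 0.266 and 0.979 ± 0.0966 CPM with overlap (log2 0.32, SE 0.45). In the list of 12 ligands and adhesion molecules of recruitment and survival, 7 were tested, all 7 were fitted higher (median 0.25 on the log2 scale), and 0 passed. Ccl7, Ccl8, Ccl12, Csf2 and Sele were below the count filter. Icam1, the adhesion molecule with the next lowest p, had a log2 change of 0.42 (SE 0.33, edgeR adjusted p = 0.693).

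Itgam and Cd14, a surface integrin and a pattern receptor, did not separate the groups. Itgam (ENSMUSG00000030786, chromosome 7, 128062640 to 128118491) encodes CD11b, which pairs with the product of Itgb2 to form the complement receptor of myeloid cells. It had 0.436, 0.768 and 0.729 CPM in WT replicates 1 to 3 and 0.454, 1.11 and 0.919 CPM in KO replicates 4 to 6. KO replicate 4, at 5 counts, was almost as low as WT replicate 1, at 7 counts, and the exact 95% Poisson intervals of these 2 libraries, 0.147 to 1.06 and 0.175 to 0.899 CPM, hold both values. Its log2 change was 0.39 (SE 0.52, edgeR adjusted p = 0.81), and it was 0.11 without KO replicate 5 and 0.65 without KO replicate 4. In the GENCODE vM21 annotation 68.7% of its exon bases also belong to the same-strand gene Gm49368, which had 0 counts in all 6 libraries, and the handling of reads falling in both genes is not stated there or in the labels. Itgb2 stood at 3.01 ± 0.304 and 3.99 ± 0.743 CPM (log2 0.40, SE 0.30), and the CPM ratio of Itgam to Itgb2 was 0.215 ± 0.0626 and 0.217 ± 0.116.

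Cd14 (ENSMUSG00000051439, chromosome 18, 36725074 to 36726736) presents lipopolysaccharide to Tlr4 and its partner Ly96. It had 9.91, 2.24 and 5.15 CPM in WT replicates 1 to 3 and 9.36, 2.45 and 7.88 CPM in KO replicates 4 to 6. Both groups spanned nearly the same range, and the highest value belonged to a WT-labelled library. Its log2 change was 0.17 (SE 0.62, edgeR adjusted p = 0.936) and its sign was not stable. It was −0.22 without WT replicate 2, −0.17 without KO replicate 4 and −0.53 with the mitochondrial share in the model. Across the 6 libraries Cd14 ran against Itgam (Pearson r = −0.69) and Ccr2 (r = −0.51), described over 6 libraries only. Of its partners, Ly96 stood at 3.25 ± 0.740 and 5.77 ± 1.39 CPM without overlap of the groups (log2 change 0.83, SE 0.32, adjusted p = 0.535 by edgeR), and Tlr4 at 0.571 ± 0.232 and 0.881 ± 0.297 CPM with overlap (log2 0.63, SE 0.53). Lbp, also on the list of partners, stood at 71.8 ± 23.4 and 76.0 ± 19.5 CPM with overlap (log2 0.08, SE 0.31).

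In the fit without the mitochondrial share, Lyz2 and Ms4a7 differed little in comparison with the spread between libraries. Lyz2 (ENSMUSG00000069516, chromosome 10, 117277331 to 117282321), the lysozyme of macrophages and granulocytes, was the most abundant of the 10. It had 19.9, 8.00 and 18.5 CPM in WT replicates 1 to 3 and 16.6, 39.0 and 17.9 CPM in KO replicates 4 to 6. A single library, KO replicate 5, stood far above the next highest value, and the other 5 gave no separation. The log2 change of 0.66 (SE 0.44, edgeR adjusted p = 0.671) became 0.15 without KO replicate 5 and 0.35 without WT replicate 2. It was 1.10 without WT replicate 1 and KO replicate 4. With the mitochondrial share in the model it was 1.30 (edgeR unadjusted p = 0.0033, adjusted p = 0.497). Lyz2 took between 26.4% and 57.9% of the summed CPM of the 10 markers in a library. Without Lyz2 the other 9 summed to 22.3 to 24.3 CPM in WT-labelled and 28.3 to 45.8 CPM in KO-labelled libraries, without overlap. Of its 50-base transcript words 15.4% are shared with Lyz1, which had between 0 and 6 counts per library.

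Ms4a7 (ENSMUSG00000024672, chromosome 19, 11321039 to 11336146), of a family of 4-span membrane proteins found on macrophages, was at the limit of detection. It had 2, 3 and 13 counts in WT replicates 1 to 3 and 7, 15 and 5 counts in KO replicates 4 to 6. These are 0.125, 0.192 and 0.632 CPM against 0.636, 0.695 and 0.328 CPM, and WT replicate 3 lay within the KO-labelled range. The log2 change was 0.75 (SE 0.71, edgeR adjusted p = 0.737). It was 0.38 without WT replicate 1, 0.50 without WT replicate 2, 0.30 without WT replicate 1 and KO replicate 4, and −0.35 by limma-voom with sample quality weights. The gene was below the count filter when WT replicate 3 or KO replicate 5 was left out. Its relatives Ms4a6b and Ms4a6d had log2 changes of 1.25 (SE 0.59) and 1.03 (SE 0.51), and these 2 were picked after their values were seen.

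**Figure D2:**
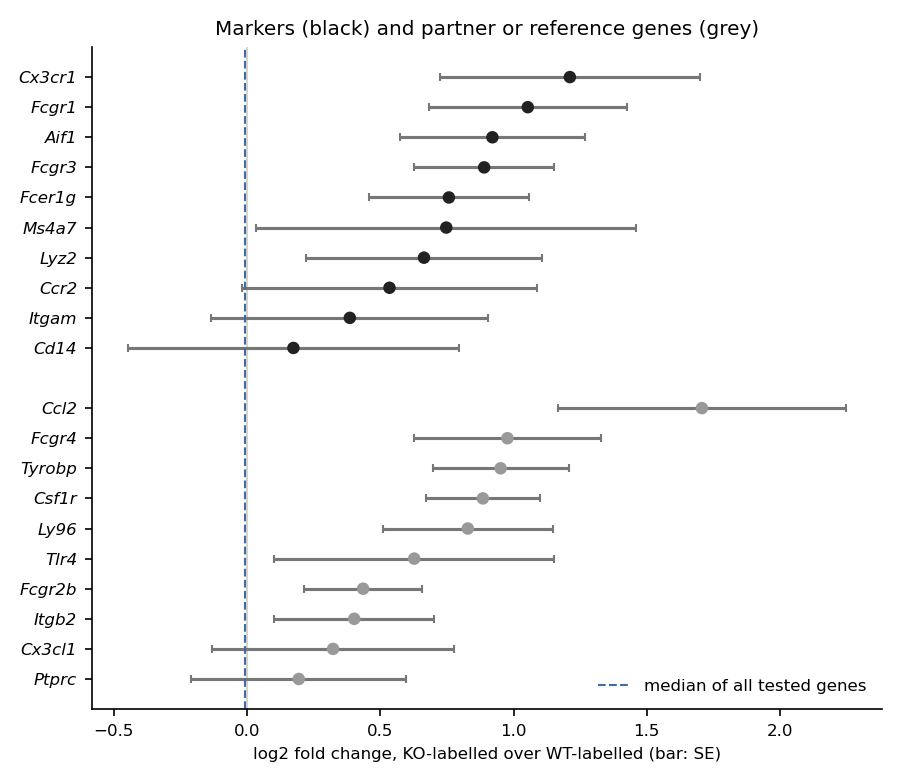
Fitted log2 fold change (KO-labelled over WT-labelled) with its SE (horizontal axis) for the 10 markers (black) and 10 ligands, partners or reference genes (grey), the dashed line being the median of all tested genes. All 10 markers lie right of that line, from 0.17 for Cd14 to 1.21 for Cx3cr1, and none passed the adjusted threshold. The grey genes are a selection, all fitted higher. The 2 partners fitted lower, Cebpa (−0.34) and Cebpb (−0.01), are not drawn.

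Per kb of gene length the 10 markers fell into an upper and a lower 5. Mean levels over the 6 libraries were 15.2 CPM per kb for Lyz2, 9.67 for Fcer1g, 3.92 for Cd14, 2.88 for Aif1 and 2.72 for Fcgr3. They were 0.633 CPM per kb for Fcgr1, 0.395 for Cx3cr1, 0.313 for Ccr2, 0.147 for Itgam and 0.0976 for Ms4a7. The lowest library of Fcgr3 (1.76 CPM per kb) lay above the highest of Fcgr1 (0.982), and this was the only step between neighbours at which the ranges did not overlap. Within the upper 5 and within the lower 5, each gene overlapped its neighbours in the order. The 3 genes most used to tell monocytes from resident macrophages, Ccr2, Cx3cr1 and Itgam, were thus all in the lower 5, with 5 to 54 counts per library.

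**Figure D3:**
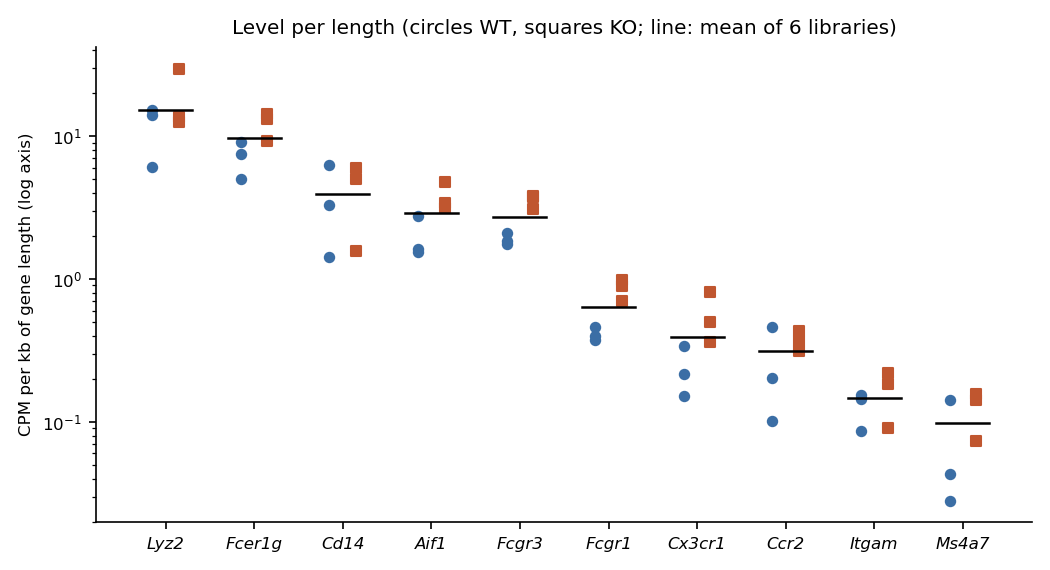
Level per kb of gene length in CPM per kb (log axis) for the 10 markers in order of their mean, with WT-labelled (circles) and KO-labelled (squares) libraries and a line at the mean of 6. The only gap between neighbours lies between Fcgr3, lowest at 1.76, and Fcgr1, highest at 0.982.

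The libraries did not rank alike for all markers. KO replicate 4 was highest for 4 markers (Cx3cr1, Fcgr1, Fcer1g and Aif1), KO replicate 5 for 3 (Itgam, Lyz2 and Ms4a7) and KO replicate 6 for Fcgr3. WT replicate 1 was lowest for 6 of the 10, among them Ccr2, Cx3cr1 and Fcer1g, yet highest for Cd14. Over the 6 libraries Cx3cr1 and Fcer1g ran together (Pearson r = 0.96), as did Fcgr1 and Fcgr3 (r = 0.95) and Fcgr3 and Aif1 (r = 0.90). These values describe 6 libraries in 2 groups, so a shared difference between the groups enters each of them. The 5 protein-coding genes outside the set, with a mean of at least 5 CPM, whose log2 CPM was most like the mean profile of the markers were Cln3 (r = 0.989), Tgfb1 (0.987), Myo1c (0.986), Csf1r (0.986) and Cd44 (0.984). They were taken from 8846 genes over 6 libraries, where high values of r are common.

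Csf1r, the receptor for the macrophage growth factor, served as a macrophage denominator. Csf1r stood at 12.3, 16.5 and 16.9 CPM in WT replicates 1 to 3 and 31.3, 24.7 and 28.5 CPM in KO replicates 4 to 6. The CPM ratio of Fcgr3 to Csf1r was 0.249, 0.194 and 0.216 in the WT-labelled and 0.206, 0.216 and 0.233 in the KO-labelled libraries, a spread of 1.28-fold over all 6. Its means were 0.219 ± 0.0277 and 0.218 ± 0.0136 (SD, n = 3 each), and no marker had separated groups in its ratio to Csf1r. Relative to Ptprc, the CD45 gene of all leukocytes, the groups were apart for Cx3cr1 (0.184 ± 0.0449 and 0.359 ± 0.0769) and Fcer1g (1.10 ± 0.245 and 1.57 ± 0.186) and overlapped for the other 8. Ptprc itself stood at 6.03 ± 2.47 and 6.93 ± 2.12 CPM (log2 change 0.19, SE 0.40, adjusted p = 0.878 by edgeR). Such ratios compare libraries and not the levels of 2 genes, since gene length enters them.

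**Figure D4:**
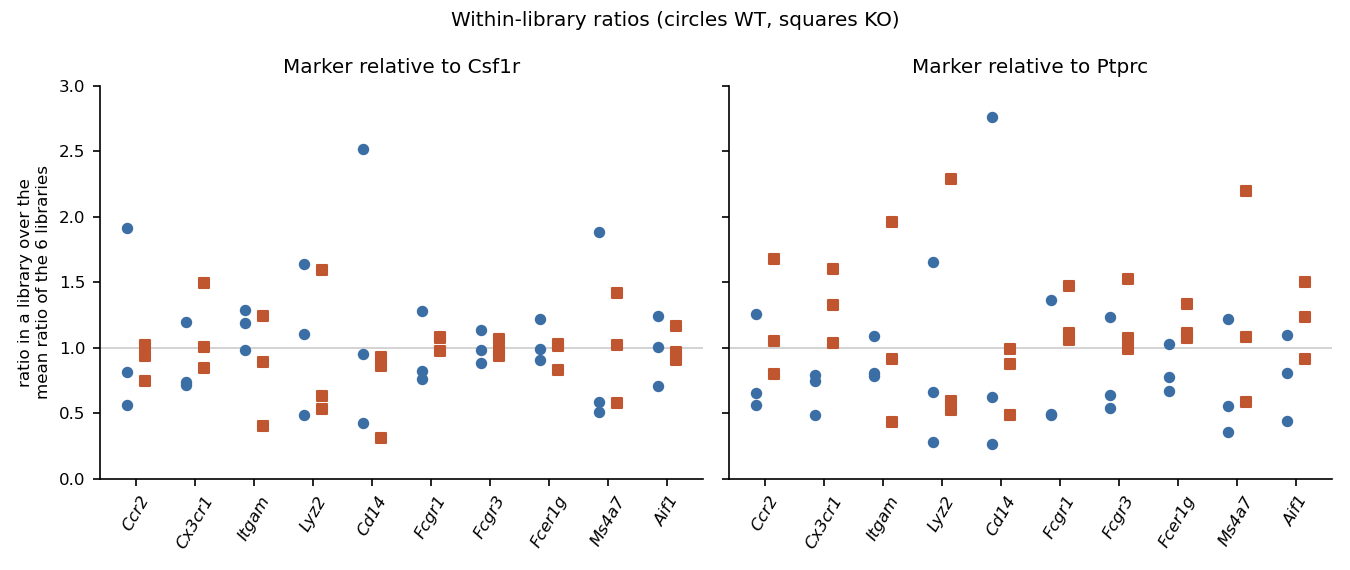
Ratio of each marker's CPM to that of Csf1r (left) or Ptprc (right) in each library, divided by the mean ratio of the 6 libraries (vertical axis), with WT-labelled libraries as circles and KO-labelled ones as squares. Fcgr3 over Csf1r stays within a 1.28-fold range, while Cd14 over Ptprc spreads 10.5-fold.

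Other genes of the same cells were read from lists. Of 13 partners of the markers (adaptors, co-receptors and transcription factors) 11 were fitted higher and 2 lower, with a median log2 change of 0.40 and 0 past the threshold. Tyrobp, an adaptor that pairs with Trem2 and other myeloid receptors, stood at 5.09 ± 0.987 and 9.89 ± 1.42 CPM (log2 change 0.95, SE 0.26, adjusted p = 0.40 by edgeR). Of 30 further genes of monocytes and recruited macrophages 21 were tested, 18 fitted higher and 3 lower, with a median of 0.64 and 0 past the threshold. Only 1 of the 21 had an unadjusted edgeR p below 0.05 as higher (5.37% of all tested genes). For 7 of them every KO-labelled library lay above every WT-labelled one (8.12% of all tested genes). The 30 summed to 62.1 to 84.2 CPM in WT-labelled and 74.2 to 144 CPM in KO-labelled libraries, with overlap. Cybb, a subunit of the phagocyte oxidase, had a log2 change of 0.77 (SE 0.33) and Cd68, a lysosomal macrophage protein, of 0.71 (SE 0.32), both without overlap of their groups. The 2 genes of blood monocytes named next, Ly6c2 and Plac8, were picked after their values were seen. Ly6c2, the marker of classical monocytes, had 9, 10 and 10 counts in the WT-labelled and 0, 9 and 2 counts in the KO-labelled libraries, below the count filter. In CPM these were 0.561, 0.640 and 0.486 against 0, 0.417 and 0.131, so every KO-labelled library lay below every WT-labelled one, opposite to Cybb and Cd68. Its reads can be exchanged with its close copy Ly6c1. Plac8, also of monocytes, had a log2 change of 0.25 (SE 0.23). Other genes of this list below the filter went in both directions with overlapping groups, and those named here were picked after their values were seen. Mean CPM in WT-labelled and KO-labelled libraries was 0.268 and 0.845 for F13a1 and 0.184 and 0.292 for Ccr1. It was 0.746 and 0.495 for Clec4a3 and 0.0947 and 0.0463 for Chil3.

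Markers of other cells differed to unequal degrees. Of 16 Kupffer cell markers 15 were tested, 13 fitted higher and 0 called, with a median log2 change of 0.61. For 7 of these 15 every KO-labelled library lay above every WT-labelled one (8.12% of all tested genes). An unadjusted edgeR p below 0.05 as higher was also found for 7 (5.37% of all tested genes). This list includes Csf1r, the macrophage denominator used above. The Kupffer cell markers summed to 326 to 390 CPM in WT-labelled and 436 to 486 CPM in KO-labelled libraries, without overlap. The 10 markers of monocyte-derived macrophages summed to 30.4 to 42.9 and 56.9 to 67.3 CPM, also without overlap. The ratio of the 2 sums was 0.109 ± 0.0154 and 0.136 ± 0.0187 (SD, n = 3 each) and its groups overlapped. Without Lyz2 and Cd14 in the sum it was 0.0494 ± 0.0120 and 0.0675 ± 0.0104, also with overlap. Clec4f, found on Kupffer cells, had a log2 change of 0.94 (SE 0.34, edgeR adjusted p = 0.52), and Cd163, a scavenger receptor, of 1.35 (SE 0.33, edgeR adjusted p = 0.40); Clec4f was picked after its value was seen. Of 12 lipid-associated macrophage markers 11 were tested, 7 fitted higher and 4 lower (median 0.29), with Lgals3 at 1.64 (SE 0.38) and Fabp5 at −1.67 (SE 0.63). This list includes Trem2, the targeted gene. It also includes Apoe and Ctsb, both fitted lower (−0.11 and −0.05). Their WT-labelled means were 29354 and 472 CPM, against 2.55 CPM for Lgals3. All 10 endothelial markers were fitted higher (median 0.65), summing to 176 to 196 and 260 to 363 CPM, with Eng at 1.04 (SE 0.30) and Cdh5 at 0.67 (SE 0.20). Of these 10, 5 had an unadjusted edgeR p below 0.05 as higher, as did 5 of the 10 markers of monocyte-derived macrophages. For 4 of the endothelial markers every KO-labelled library lay above every WT-labelled one. The part of Kupffer and endothelial RNA in the markers' values was not tested.

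Markers of granulocytes and lymphocytes were fitted in both directions. Most neutrophil, T and NK cell markers were below the count filter. Of 13 neutrophil markers 3 were tested, with 1 fitted higher and 2 lower, and the list summed to 6.08 to 11.4 CPM in WT-labelled and 4.68 to 8.93 CPM in KO-labelled libraries. Ly6g had 0 counts in all 6 libraries, and S100a8 and S100a9 had log2 changes of −1.25 (SE 0.58) and −0.90 (SE 0.76). Of 15 T and NK cell markers 5 were tested, 3 fitted higher and 2 lower, summing to 5.44 to 9.09 and 4.63 to 8.27 CPM. Cd4, which macrophages can also express, had a log2 change of −2.21 (SE 0.59, edgeR adjusted p = 0.40), and Ccl5 of 0.62 (SE 0.43). Of 8 B cell markers 7 were tested, 3 fitted higher and 4 lower, summing to 10.7 to 31.6 and 16.7 to 23.9 CPM, with Jchain at −0.94 (SE 0.44) and Cd79a at −1.12 (SE 0.54). Of 13 dendritic cell markers 10 were tested, 7 fitted higher and 3 lower, summing to 97.5 to 145 and 123 to 154 CPM, with Batf3 at 1.49 (SE 0.70) and Ccr7 at −1.30 (SE 0.81). That sum is mostly of histocompatibility class II genes. Of its WT-labelled mean of 128 CPM, Cd74 gave 42.0, H2-Ab1 24.0, H2-Eb1 23.5 and H2-Aa 22.8. Pan-leukocyte genes had 9 of 11 fitted higher (median 0.19), with Rac2 at 0.91 (SE 0.28) and Cd52 at 0.88 (SE 0.41).

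Genes of hepatocytes were mostly fitted lower. Of 12 hepatocyte markers 3 were fitted higher and 9 lower (median −0.32), with Cps1 at −1.70 (SE 0.60) and Ass1 at −0.75 (SE 0.38), both enzymes of the urea cycle. They summed to 83389 to 124560 CPM in WT-labelled and 84421 to 91433 CPM in KO-labelled libraries. Of 8 stellate cell markers 4 were fitted higher and 4 lower (median 0.05), with Des at 1.91 (SE 0.48) and Pdgfrb at 0.66 (SE 0.28). In none of these lists did a gene pass the adjusted threshold.

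The separated markers could hardly change sign when 1 library was left out, since all their KO-labelled values lay above the WT-labelled ones. The omissions therefore show only how far the size of each change moved. Leaving out each library in turn gave log2 changes of 0.82 to 0.98 for Fcgr3, 0.95 to 1.18 for Fcgr1, 0.55 to 0.94 for Fcer1g, 0.72 to 1.22 for Aif1 and 0.85 to 1.55 for Cx3cr1. For 4 of them, Cx3cr1, Fcgr1, Fcgr3 and Aif1, the groups also stayed apart under each of the 5 other scalings, while those of Fcer1g did not. limma-voom with sample quality weights put Cx3cr1, Fcgr1, Fcgr3 and Fcer1g past the threshold, at adjusted p from 0.0138 to 0.0196, while calling 4063 of the 13693 genes. In the same fit the log2 change of Aif1, the fifth separated marker, was 0.48 (adjusted p = 0.142 by limma) and that of Lyz2 was 0.08. No other alternative called a marker. Two-sided exact permutation tests on log2(CPM + 0.5) gave p = 0.1 for each of the 5 separated markers. For the other 5 the same tests gave p from 0.2 to 0.8. The value of 0.1 is the smallest that 3 against 3 libraries allow. Complete separation always gives it, so it adds nothing to that separation.

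**Figure D5:**
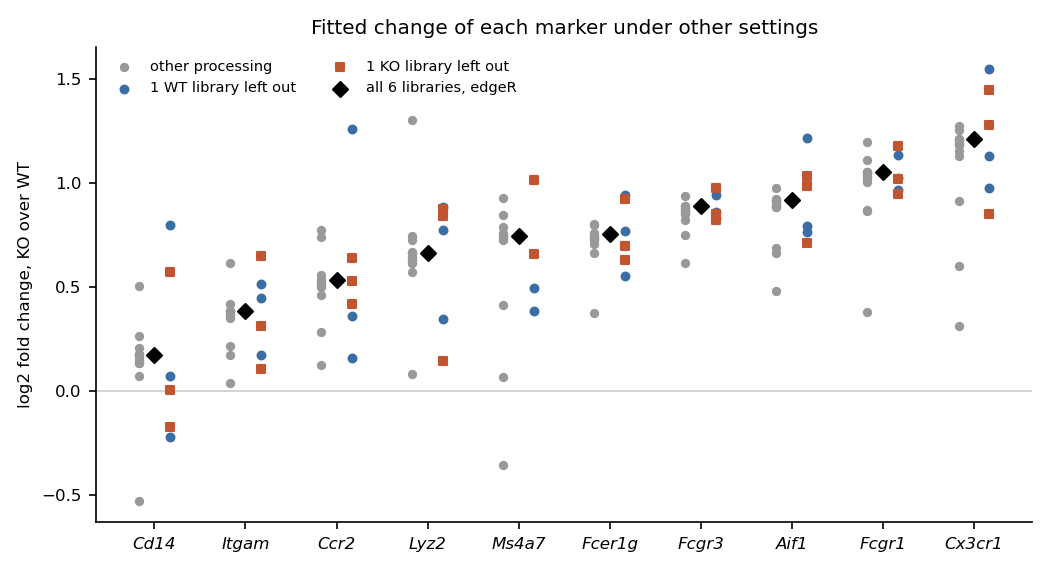
Log2 fold change of KO-labelled over WT-labelled libraries (vertical axis) for each marker with all 6 libraries (diamond), with 1 library left out (blue circles, WT; red squares, KO) and under other scalings, filters, units, covariates and tests (grey). Fcgr3 stays between 0.62 and 0.98, while the points of Cd14 and Ms4a7 cross 0.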

How the data were processed

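Liver RNA from 6 mouse libraries, 3 labelled WT and 3 labelled Trem2 knockout, was extracted with Trizol from frozen tissue and made into TruSeq libraries, per the labels' protocols. The authors deposited a table of read counts per gene and a separate table of FPKM values. Per the submitters' processing notes, the build was mm10 and the tools included featureCounts (1.5.0-p3) and HISAT2 (2.0.5). Strand and multi-gene settings are not given in the sources used here. Deposited FPKM values were used only as an alternative, as log2(FPKM + pseudocount).

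Counts were tested with edgeR 4.0.16 (R 4.3.3) after filterByExpr and TMM scaling, by its quasi-likelihood test over 13693 genes with Benjamini-Hochberg adjustment at 0.05. The method was tested on simulated data. The SE was derived from F as the size of the log2 change divided by F's square root. Exact 95% Poisson intervals cover counting error only. limma 3.58.1 (voom) and DESeq2 1.42.0 were alternatives, as were other scalings, filters and omissions of libraries. No 2 libraries agreed within sampling noise (lowest chi-square per degree of freedom 46.9). The biological coefficient of variation was 34.7%. Total counts were 11591021 to 20399361 per library.

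The markers and gene lists were chosen with earlier results of these data known. Named genes were the 10 markers, the 2 with the smallest p of each other list, Trem2, Csf1r, Ptprc and the 5 genes most like the markers' mean profile. Others, such as members of the partner and ligand lists, were named for their role beside a marker after their values were seen.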

Additional observations from a re-analysis of the deposited data

How the results depend on the processing

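Of the 20 alternatives 1, the omission of WT replicate 1 and KO replicate 4 together, was chosen after seeing the data. The number of genes called among all tested was 2 with edgeR, 165 with DESeq2, 1 with limma-voom, 4063 with limma-voom and sample quality weights, 1 with library size alone, 61 with edgeR and no count filter and 1 with the mitochondrial share as covariate. DESeq2 was run without the low-count filter and gave p-values for 24623 genes, against 13693 in edgeR. Its own filtering before adjustment came on top, so the test and the genes tested differ together. The number called was 0 to 1 when single libraries were left out and 0 without WT replicate 1 and KO replicate 4. The markers' median log2 change of 0.75 was 0.35 with FPKM and a pseudocount of 1, 0.69 to 0.92 when single libraries were left out (the latter without KO replicate 5) and 0.53 without WT replicate 1 and KO replicate 4. Cd14 changed sign, to −0.53 with the mitochondrial share as covariate, −0.22 without WT replicate 2 and −0.17 without KO replicate 4, with single omissions ranging from −0.22 to 0.80. Ms4a7 changed sign to −0.35 with sample quality weights. From 9 to 10 markers were fitted higher in each alternative. Ms4a7 was not fitted with a filter of at least 10 counts on average, nor without WT replicate 3 or KO replicate 5. In these settings all 9 fitted markers were higher, and the median is over those 9. Except where libraries were left out, the cause was not tested. No paired analysis was possible because the groups share no replicate numbers.

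Depth limits Ms4a7, Itgam, Fcgr1, Cx3cr1 and Ccr2, which had at most 54 counts in a library. With 3 libraries a group an exact permutation test cannot go below p = 0.1.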
